A study of Homo sapiens with 2 samples.

Results

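NEAT1, MALAT1 and KCNQ1OT1, long non-coding RNAs that stay in the nucleus, were followed over single A549 cells. They were found by symbol in the deposited gene table and make up 3 of its 36601 genes. They were chosen by their counts in these cells, where an earlier analysis of both libraries had found NEAT1 and KCNQ1OT1 among the leading genes of a group of cells, so every difference between cells is given as a description, with no test.

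A549 is a long-established cell line from a human lung adenocarcinoma, with epithelial features. The 2 libraries, control and squashed, were each 1 library of cells of the same line and the same batch label. The squashed cells had been confined under polydimethylsiloxane (PDMS) micropillars, and the control cells had been kept in 2D without confinement. Both were taken after a 48 h recovery. In both libraries live cells had been sorted for loss of a chromosome reporter named ChReporter, a state the submitters put at about 1 in 500 cells, so both groups hold reporter-negative cells only. Which chromosome the reporter sits on was not stated in the labels used here.

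NEAT1 is the scaffold of paraspeckles, nuclear bodies in which its long isoform binds proteins such as NONO, SFPQ and PSPC1 and which grow under stress. MALAT1 is one of the most abundant nuclear RNAs and lies in nuclear speckles beside splicing factors. KCNQ1OT1 is an unspliced antisense RNA that starts inside KCNQ1 on the unmethylated allele and takes part in silencing imprinted genes of that domain. MALAT1 and the long NEAT1 isoform end in a stabilizing triple helix and not in an ordinary poly(A) tail, while the short NEAT1 isoform is polyadenylated.

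The kit primes on runs of A, so the longest A run of each gene's longest annotated transcript is shown, in capitals. Shown with them is the polyadenylation signal at the end of a short NEAT1 isoform. The positions are GRCh38, and each sequence is written 5′ to 3′ along its RNA's strand, with T for U:
NEAT1, A run, chr11:65440828-65440879, plus strand: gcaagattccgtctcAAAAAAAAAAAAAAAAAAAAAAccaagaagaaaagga
MALAT1, A run, chr11:65506083-65506125, plus strand: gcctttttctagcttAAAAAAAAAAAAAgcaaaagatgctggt
KCNQ1OT1, A run, chr11:2610702-2610760, minus strand: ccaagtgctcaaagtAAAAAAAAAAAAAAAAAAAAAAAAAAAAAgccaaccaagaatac
NEAT1, end of the short isoform, chr11:65426488-65426513, plus strand, signal in capitals: cccctttacagcacaAATAAAgtttg

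The runs hold 22 A in NEAT1, 13 in MALAT1 and 29 in KCNQ1OT1, and lie 4676, 1963 and 2389 bases before the ends of transcripts of 22743, 10434 and 91667 bases, each a single exon. Runs of at least 10 A numbered 5, 1 and 17, or 0.220, 0.0958 and 0.185 per kb, against 0.0839 per kb over the longest transcripts of 36366 genes, of which 16.6% hold such a run on the transcript's own strand. The AATAAA shown for NEAT1 ends 5 bases before the annotated end of a short isoform of 3301 bases. Of 8 annotated short NEAT1 isoforms, 2 end at that place and the others elsewhere. Of all longest transcripts, 48.4% hold AATAAA within their last 50 bases. The counts are per gene and do not show from which of these places a UMI came, nor which NEAT1 isoform it belongs to.

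NEAT1 (ENSG00000245532) spans chr11:65422774-65445540 and MALAT1 (ENSG00000251562) spans chr11:65497640-65508073, both on the plus strand, with 52099 bases between them. KCNQ1OT1 (ENSG00000269821) spans chr11:2597308-2700003 on the minus strand, inside KCNQ1, which is read from the plus strand. Use of strand in the counting was not stated in the labels, and without it reads of KCNQ1OT1 and KCNQ1 cannot be told apart.

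Barcodes were kept as cells from 1000 UMIs and 500 genes upward, unless over 20% of their UMIs were mitochondrial: 1906 of 2574 barcodes in control and 1930 of 3132 in squashed. A UMI is 1 counted molecule. The kept cells held 27482392 and 23328323 UMIs, with medians of 12458.5 and 9330.5 per cell, median mitochondrial shares of 5.77% and 7.10% and median ribosomal protein shares of 30.6% and 34.9%. The libraries share 4 barcodes. KRT8, KRT18 and the A549 oxidative stress markers AKR1B10, NQO1 and AKR1C1 were above 500 CPM in both libraries, while EPCAM, CDH1 and KRT19 were under 20 CPM. Summed endothelial markers reached 0.0728 and 0.0429 CPM, fibroblast markers 7.82 and 6.39 CPM, and immune markers 14.3 and 22.5 CPM, nearly all of it CD68, with PTPRC, CD3D and NKG7 at 0 in both. No cell type that should lack the 3 RNAs was present, so a background from free RNA could not be read from the data.

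MALAT1 was carried by nearly all cells, NEAT1 by about as many as lacked it, and KCNQ1OT1 by few. In control, 92.7% of cells had a MALAT1 UMI (95% exact Clopper-Pearson interval 91.4 to 93.8), 55.1% a NEAT1 UMI (52.8 to 57.3) and 17.9% a KCNQ1OT1 UMI (16.2 to 19.7). In squashed the shares were 93.7% (92.6 to 94.8), 42.0% (39.8 to 44.3) and 12.4% (10.9 to 13.9). All intervals here cover counting error only. Each cell was also thinned to 2000 UMIs, which left 1825 control and 1782 squashed cells. The shares then became 80.7% and 75.2% for MALAT1, 30.1% and 23.5% for NEAT1, and 3.95% and 2.30% for KCNQ1OT1. All 3 RNAs were thus in fewer squashed cells at that depth, which for MALAT1 turned the unthinned order. At 5000 UMIs the shares were 88.4% and 87.9% for MALAT1, 42.0% and 37.2% for NEAT1, and 8.40% and 5.34% for KCNQ1OT1.

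The RNAs were concentrated in few cells. The 191 control cells richest in each RNA, 10% of the cells, held 78.9% of all NEAT1 UMIs, 61.7% of MALAT1 and 83.0% of KCNQ1OT1, with 17.2% to 18.5% of the library's UMIs. The matching 193 squashed cells held 82.6%, 66.8% and 92.0%, with 20.6% to 21.7% of the library's UMIs. KCNQ1OT1 had a UMI in only 341 control and 239 squashed cells, so its shares follow in part from its low count. Cells were ranked by UMIs of the RNA, which favours deep cells, and such shares were not computed for other genes. Per cell, NEAT1 in control had a median of 67.0 CPM, a 90th percentile of 3783 CPM and a highest value of 53153 CPM. In squashed its median was 0, its 90th percentile 1518 CPM and its highest value 30303 CPM. MALAT1 ran from a 10th percentile of 112 CPM over a median of 1866 CPM to a 90th of 23857 CPM in control, and from 118 over 1563 to 18686 CPM in squashed. The highest MALAT1 values, 476811 CPM in a control cell of 1919 UMIs and 337938 CPM in a squashed cell of 2027 UMIs, belonged to shallow cells.

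Counting alone gives an overdispersion, (variance − mean) / mean squared, of 0. Over cells thinned to 5000 UMIs (1702 control and 1518 squashed), NEAT1 had 6.73 in control and 6.93 in squashed, ranks 14 of 4300 and 21 of 4246 genes with a mean of at least 0.05 UMI. KCNQ1OT1 had 7.78 and 9.17, ranks 11 and 15, at means of only 0.126 and 0.0764 UMI. MALAT1 had 3.21 and 3.27, ranks 44 and 66, and the highest variance over mean of all these genes in both libraries, 119 in each. The median gene had 0.31 and 0.36, far below all 3 RNAs in both libraries. MALAT1 was the least overdispersed of the 3 at this depth, and the order of KCNQ1OT1 and NEAT1 turned when cells were thinned to 2000 UMIs (5.86 and 7.28 in control, 7.83 and 8.85 in squashed).

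**Figure D1:**
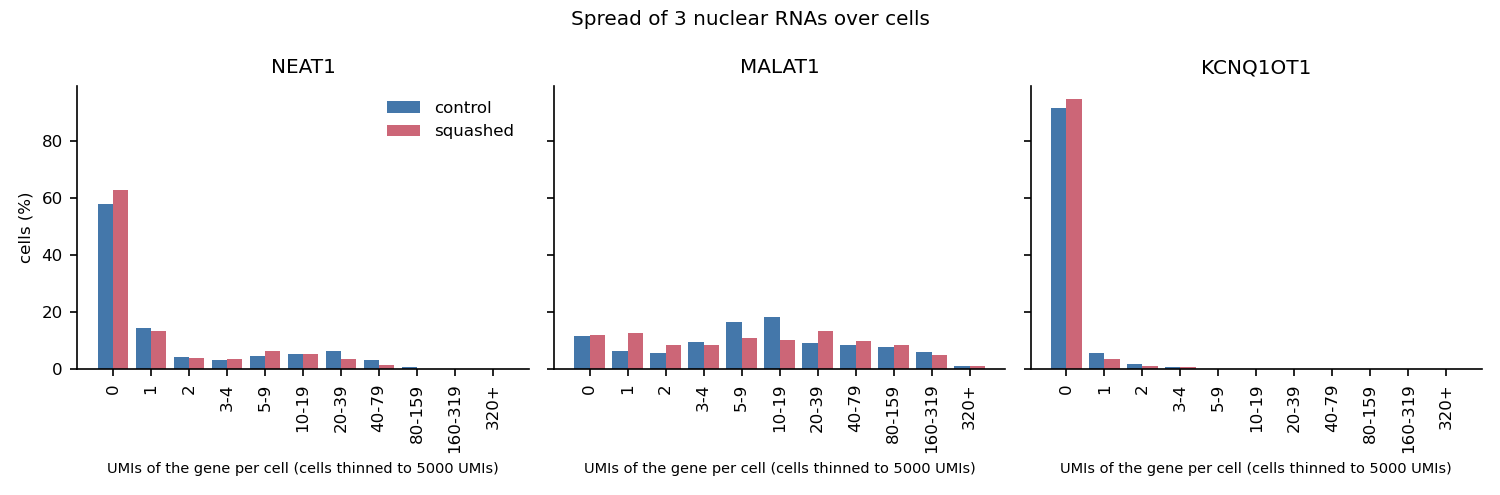
Share of cells (%) by the number of UMIs of each RNA in a cell, with every cell thinned to 5000 UMIs, in the control (blue, 1702 cells) and squashed (red, 1518 cells) libraries. The classes widen to the right, so bar heights are not cells per UMI. NEAT1 was at 0 in 58.0% of control and 62.8% of squashed cells, MALAT1 covered the whole range, and KCNQ1OT1 was at 0 in more than 90% of cells.

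Cells rich in one of these RNAs were rich in the others. At 5000 UMIs, control cells with 0 to 4 MALAT1 UMIs had a NEAT1 UMI in 13.04% of 560 cells, and cells with at least 100 MALAT1 UMIs in 99.5% of 212 cells, with medians of 0 and 31 NEAT1 UMIs. In squashed the same classes gave 8.31% of 626 cells and 99.4% of 165 cells, with medians of 0 and 16. KCNQ1OT1 followed the same order: 0.179% and 33.0% of these control cells and 0.160% and 23.6% of these squashed cells had a UMI. The single-cell rank correlation (Spearman's rho) of NEAT1 with MALAT1 was 0.71 in both libraries, that of KCNQ1OT1 with NEAT1 0.41 and 0.33, and that of KCNQ1OT1 with MALAT1 0.38 and 0.30. These correlations are across cells that share a library and a depth, not across replicates.

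**Figure D2:**
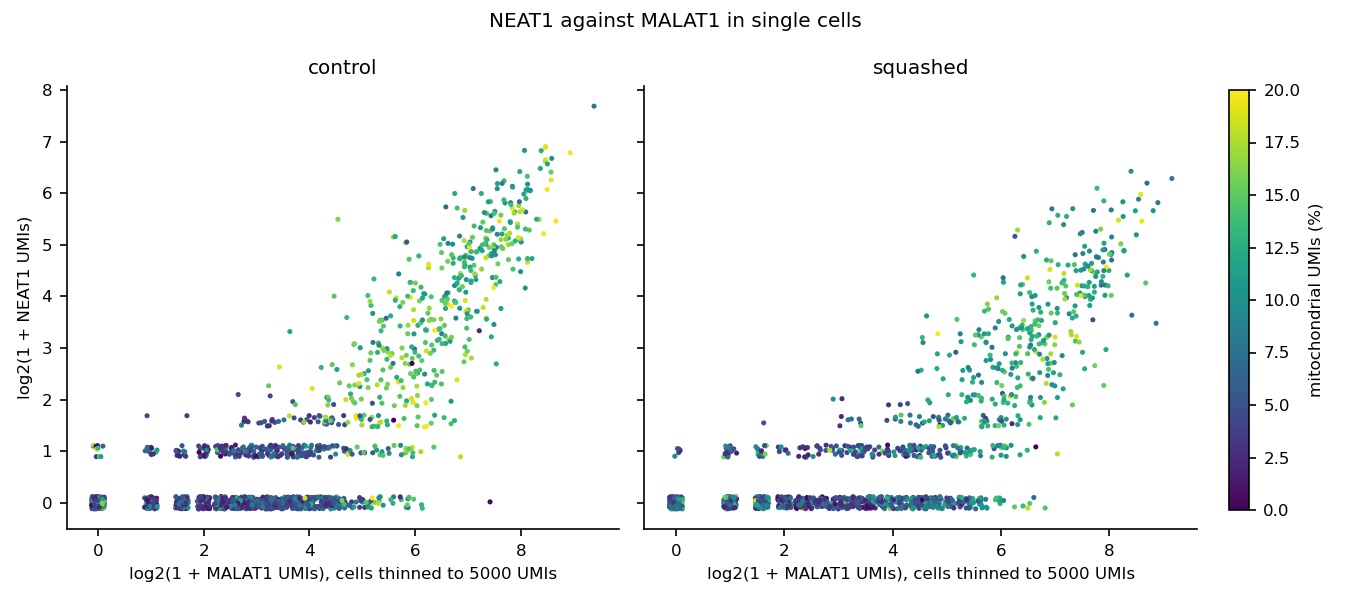
NEAT1 against MALAT1 in single cells thinned to 5000 UMIs, both as log2(1 + UMIs), with a small random shift so that equal counts can be seen, coloured by the mitochondrial share of the cell's UMIs. In both libraries NEAT1 was mostly at 0 or 1 UMI over the lower range of MALAT1 and climbed with it above about 25 UMIs, where cells with 10 to 20% mitochondrial UMIs were common.

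The ratio of NEAT1 to MALAT1 was not fixed. Over all kept cells there were 16.4 NEAT1 UMIs per 100 MALAT1 UMIs in control and 8.98 in squashed. Within cells under 1000 CPM of MALAT1 the ratio was 8.30 and 5.58, and within cells of at least 20000 CPM it was 19.4 and 10.4. It was lower in squashed in each of the 4 MALAT1 classes. KCNQ1OT1 gave 0.406 and 0.240 UMIs per 100 MALAT1 UMIs. These are ratios of counted UMIs, and how many molecules of each RNA the cells held was not measured.

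Genes most like the members were ranked by Pearson's r of log2(1 + UMIs) over the same thinned cells, using the lower of the 2 libraries, among 3382 genes for NEAT1 and MALAT1 and 3383 for KCNQ1OT1. For NEAT1 they were MALAT1 (r 0.79 in control, 0.75 in squashed), PAPPA (0.79 and 0.66), a secreted protease of IGF-binding proteins, ZFP36L1 (0.67 and 0.60), which binds AU-rich mRNAs, the transcription factor SOX4 (0.57 and 0.58), the fibronectin gene FN1 (0.63 and 0.49) and the antisense RNA GABPB1-AS1 (0.48 and 0.47). For MALAT1 they were NEAT1, ZFP36L1 (0.62 and 0.59), SOX4 (0.51 and 0.52), PAPPA (0.67 and 0.50), PRRC2C (0.47 and 0.46) and CYP24A1 (0.49 and 0.44), which breaks down vitamin D. KCNQ1OT1 had NEAT1 (0.42 and 0.37) and MALAT1 (0.38 and 0.31) first, then PAPPA, SOX4, ZFP36L1 and GABPB1-AS1. The most opposite genes were cytosolic mRNAs: RPS14, RPS23 and RPLP1 for NEAT1 (r −0.61 to −0.51) and for MALAT1 (−0.68 to −0.63), and RPS14, ACTG1 and RPS23 for KCNQ1OT1 (−0.32 to −0.29). GABPB1-AS1 and its neighbour GABPB1 overlap, and without strand their reads cannot be told apart.

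Levels of named groups of RNAs were set against MALAT1 class, from cells under 1000 CPM of MALAT1 to cells of at least 20000 CPM. The 13 other mostly nuclear long non-coding RNAs summed to 97.4 and 830 CPM in control and to 103 and 544 CPM in squashed. mRNAs known for retained introns, such as CCNL1, PNISR and NKTR, went from 277 to 862 CPM and from 158 to 674 CPM. Immediate early genes, such as FOS and DUSP1, went from 41.3 to 573 CPM and from 22.8 to 353 CPM. The 11 mostly cytoplasmic long non-coding RNAs, such as GAS5, went the other way, from 6321 to 4439 CPM and from 6120 to 3666 CPM. The median ribosomal protein share was 36.4% in the lowest and 24.0% in the highest class in control, and 40.4% and 25.4% in squashed, while the median mitochondrial share was 4.20% and 12.7%, and 6.64% and 11.6%. The part of these shares in the members' levels was not tested.

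By median r, nuclear speckle and splicing protein genes were somewhat more like MALAT1 than all genes were. Paraspeckle protein genes were not more like NEAT1 than all genes were. The 17 nuclear speckle and splicing protein genes had a median r with MALAT1 of 0.18 in control and 0.26 in squashed, beside medians of 0.05 and 0.09 over all genes. The 19 paraspeckle protein genes with a value had a median r with NEAT1 of −0.04 and −0.01, beside 0.01 and 0.03 over all genes. Of the members' chromosomal neighbours, 2 near NEAT1 and MALAT1 had a median r with NEAT1 of 0.02 and 0.04.

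By sums over all kept cells, all 3 RNAs were higher in cells with a larger mitochondrial share from 2% upward. NEAT1 in control was at 96.7 CPM in the 578 cells with 2 to 5% mitochondrial UMIs, 1072 CPM in the 537 cells with 5 to 10% and 3089 CPM in the 551 cells with 10 to 20%. In squashed the levels were 78.9, 735 and 1473 CPM in 455, 649 and 612 cells. The highest class stood above the lowest of these by 5.00 on the log2 scale in control (4.89 to 5.11) and by 4.22 in squashed (4.06 to 4.39).

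MALAT1 was at 2221, 6142 and 17929 CPM in control and at 2798, 7745 and 15798 CPM in squashed, log2 differences of 3.01 (2.99 to 3.04) and 2.50 (2.47 to 2.52). At 2 to 5% a single cell held 5.73% of the MALAT1 UMIs in control and 14.0% in squashed. For NEAT1 these shares were 14.7% and 19.5%. KCNQ1OT1 was at 1.39, 17.5 and 83.3 CPM in control and at 0.481, 16.7 and 42.2 CPM in squashed. Its lowest class rested on 10 and 2 UMIs, which gives log2 differences of 5.84 (5.02 to 6.97) and 6.14 (4.59 to 9.51). Below 2% the order turned for MALAT1 and NEAT1: cells under 1% held 3703 and 7470 CPM of MALAT1 and 200 and 351 CPM of NEAT1, more than cells with 1 to 2% in both libraries (1095 and 1752 CPM of MALAT1, 57.7 and 147 CPM of NEAT1). Cells under 1% were shallow, with median UMIs of 3779 and 1746. Among cells with 2000 to 5000 UMIs, MALAT1 was lower at 10 to 20% than at 2 to 5%. It was at 2524 against 9273 CPM in control (17 and 29 cells) and at 1330 against 7017 CPM in squashed (67 and 69 cells). NEAT1 in these cells was at 345 against 833 CPM in control and at 176 against 167 CPM in squashed.

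Single cells with 10 to 20% mitochondrial UMIs were not alike. Their NEAT1 had a median of 1311 CPM and quartiles of 189 and 4249 CPM in control, and a median of 226 CPM with quartiles of 0 and 1369 CPM in squashed. The rank correlation of NEAT1 with the mitochondrial share was 0.57 in control and 0.43 in squashed, and 0.59 and 0.45 with NEAT1 taken per non-mitochondrial UMI. Among G1 cells with 10000 to 20000 UMIs it was 0.62 over 255 cells and 0.44 over 205 cells. Among G2/M cells of that depth it was 0.12 over 455 cells and 0.24 over 250 cells. For MALAT1 the correlations with the mitochondrial share were 0.54 and 0.33 over all cells.

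Depth was related to the members in a way that was not a straight line. NEAT1 was lowest in cells with 5000 to 10000 UMIs, at 220 CPM in control and 146 CPM in squashed, and was at 2394 and 1479 CPM in cells with at least 20000 UMIs. MALAT1 had its low point in the same class, at 1716 and 2135 CPM, and was at 14162 and 16245 CPM in the deepest class. KCNQ1OT1 was at 5.60 and 3.32 CPM in the 5000 to 10000 class and at 71.7 and 42.4 CPM in the deepest.

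The shallowest control cells stood apart, with 2812 CPM of NEAT1 and 35670 CPM of MALAT1 in 81 cells with 1000 to 2000 UMIs, against 566 and 8456 CPM in the 148 squashed cells of that class. A single control cell held 30.1% of that class's NEAT1 UMIs and 21.3% of its MALAT1 UMIs. Cells with at least 20000 UMIs exceeded cells with 1000 to 5000 UMIs by 1.38 on the log2 scale for NEAT1 in control (1.26 to 1.51) and by 2.32 in squashed (2.17 to 2.48). For MALAT1 the differences were 0.21 (0.18 to 0.25) and 1.60 (1.57 to 1.64). In the 1000 to 5000 class a single cell held 19.8% of the NEAT1 UMIs in control and 16.9% in squashed. For MALAT1 these shares were 13.3% and 25.7%. With cells of at least 1000 genes only, the control differences were 3.03 and 1.46.

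Complexity went with the members as well. Cells with 300 to 500 genes at 2000 UMIs, 85 in control and 84 in squashed, held 8.50 and 7.34 CPM of NEAT1 and 93.5 and 264 CPM of MALAT1, with no KCNQ1OT1 UMI, and a median ribosomal protein share of 52.5% and 55.2%. Cells with at least 900 genes at 2000 UMIs, 463 and 238, held 2214 and 1069 CPM of NEAT1, 13751 and 13295 CPM of MALAT1 and 57.0 and 35.5 CPM of KCNQ1OT1. The floor of 3 UMIs for KCNQ1OT1 in the low class was 3.19 and 4.40 CPM. MALAT1's rank correlation with genes per cell at 5000 UMIs was 0.76 and 0.82, and with the ribosomal protein share −0.78 in both.

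**Figure D3:**
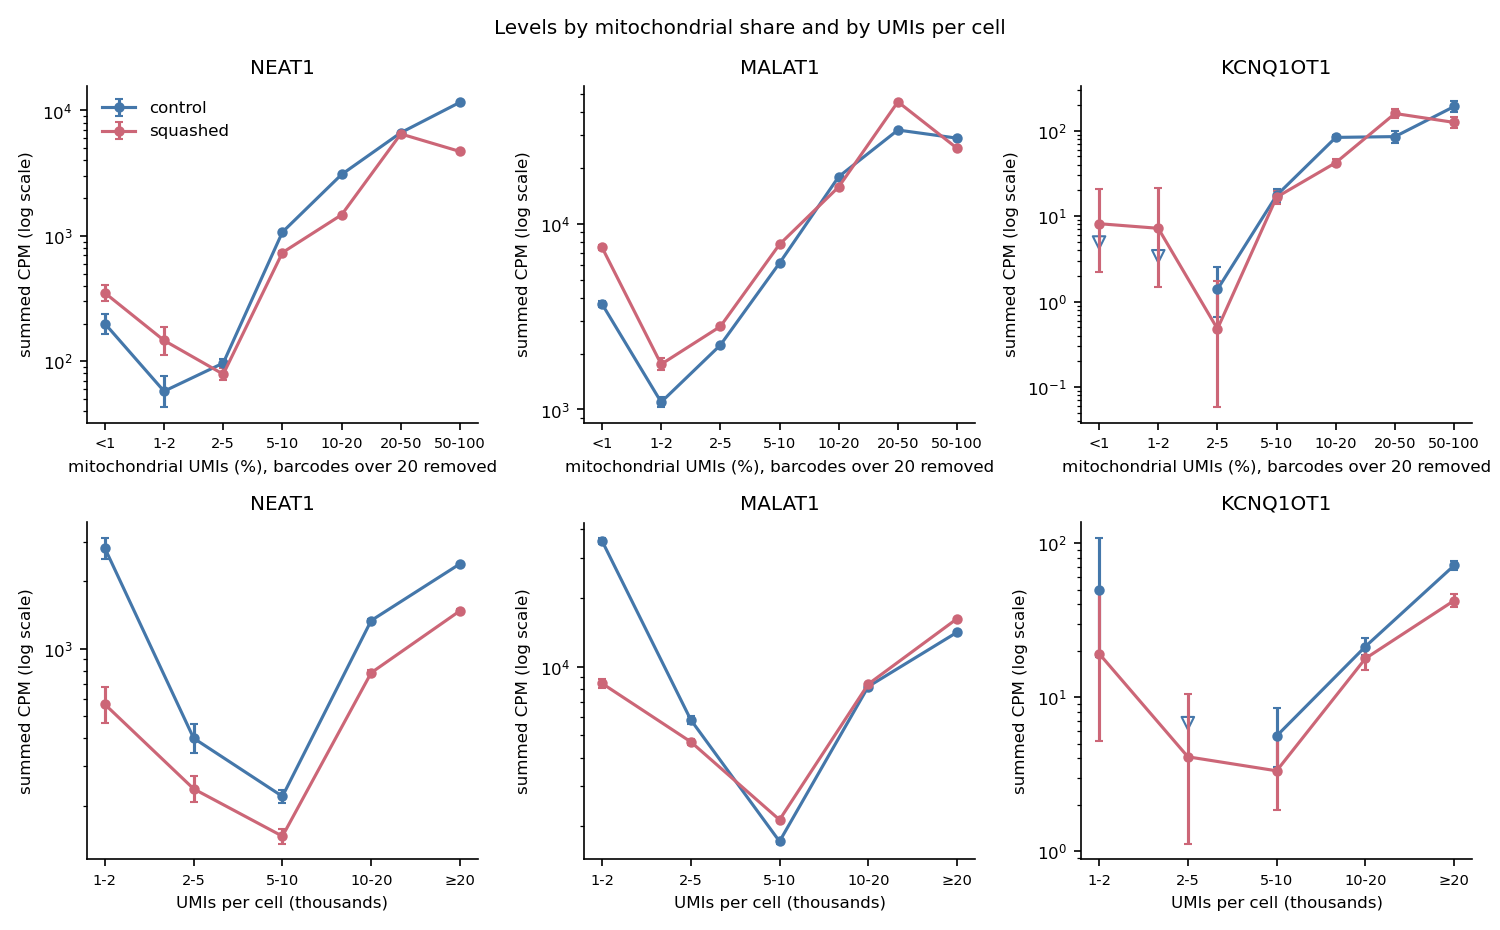
Summed CPM (log scale) of each RNA by mitochondrial share of the cell (upper row, in %) and by UMIs per cell (lower row, in units of 1000), in control (blue) and squashed (red). Bars are exact 95% intervals for counting error, open triangles mark the level of 3 UMIs where none was counted, and barcodes over 20% were removed from all other values. The 3 RNAs were higher from 2 to 5% to 10 to 20% mitochondrial UMIs in both libraries and lowest at 5000 to 10000 UMIs, except that control KCNQ1OT1 had no UMI at 2000 to 5000.

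Cell-cycle phase was called from G1/S and G2/M gene lists at 2000 UMIs. Cells in which both scores were negative were called G1, so G1 is the class left over and was not scored by genes of its own. The calls put 609 control and 747 squashed cells in G1, 307 and 369 in S and 909 and 666 in G2/M. Of these cells, 592 (32.4%) and 777 (43.6%) lay within 0.02 of a score cut, so the phases are ranges of a score. NEAT1 was at 3572 CPM in G1, 1421 in S and 178 in G2/M in control, and at 1763, 659 and 246 CPM in squashed. G2/M stood below G1 by 20.1-fold in control (log2 −4.33, −4.39 to −4.27) and by 7.15-fold in squashed (−2.84, −2.90 to −2.78).

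MALAT1 was at 17914, 9324 and 3659 CPM in control and at 15898, 7515 and 6260 CPM in squashed, with G2/M 4.90-fold (log2 −2.29, −2.31 to −2.28) and 2.54-fold (−1.34, −1.36 to −1.33) below G1. KCNQ1OT1 was at 72.5, 54.4 and 9.92 CPM in control and at 40.8, 19.2 and 11.98 CPM in squashed, 7.28-fold (log2 −2.86, −3.15 to −2.60) and 3.39-fold (−1.76, −2.08 to −1.46) lower in G2/M than in G1. By summed CPM all 3 RNAs thus had the order G1, S, G2/M in both libraries. The phases differed in mitochondrial share too, with medians of 10.3%, 6.83% and 4.84% in control and 8.75%, 7.83% and 5.61% in squashed. Among cells with 2 to 5% mitochondrial UMIs, MALAT1 was higher in G2/M than in G1. It was at 2135 against 1635 CPM in control and at 3022 against 2955 CPM in squashed. At 5 to 10% and 10 to 20% it was lower in G2/M in both libraries. Among cells with 5000 to 10000 UMIs, MALAT1 in G1, S and G2/M was at 2798, 1232 and 1359 CPM in control. In squashed it was at 2399, 1209 and 2396 CPM. Within cells of 10000 to 20000 UMIs the G2/M to G1 differences were larger for each RNA in both libraries, −5.22 and −3.35 for NEAT1, −2.73 and −1.55 for MALAT1 and −4.24 and −2.60 for KCNQ1OT1 on the log2 scale. This did not hold at each depth. With at least 20000 UMIs, control G1 and G2/M cells held 4390 and 373 CPM of NEAT1 and 21785 and 6479 CPM of MALAT1. Both differences were smaller than over all cells. In squashed these classes held 2869 and 392 CPM of NEAT1 and 26123 and 9092 CPM of MALAT1, slightly larger differences. At 5000 to 10000 UMIs NEAT1 was at 552 and 55.1 CPM in control and at 240 and 62.8 CPM in squashed, smaller differences.

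The sums in G1 came from part of the G1 cells. MALAT1 had a median of 6618 CPM in control G1 cells with quartiles of 154 and 23996 CPM, and a median of 424 CPM in squashed G1 cells with quartiles of 166 and 11315 CPM. NEAT1 had a median of 557 CPM in control G1 cells and 0 in squashed G1 cells. In G2/M the MALAT1 medians were 1755 and 3234 CPM, so by medians squashed G1 cells held less MALAT1 than squashed G2/M cells, against the order of the sums. The rank correlation of MALAT1 with summed G2/M gene CPM over cells at 5000 UMIs was 0.053 in control and 0.42 in squashed, that of NEAT1 −0.29 and 0.052, and that of KCNQ1OT1 −0.21 and −0.032. The 44 G2/M genes with a value had a median r with MALAT1 of −0.022 in control and 0.16 in squashed, beside 0.05 and 0.09 over all genes. Their median r with NEAT1 was −0.20 and −0.072, beside 0.01 and 0.03 over all genes. At 2000 UMIs a MALAT1 UMI was seen in 70.0% and 60.5% of G1 cells and in 89.8% and 93.5% of G2/M cells, while a NEAT1 UMI was seen in 52.4% and 28.3% of G1 cells and in 15.7% and 19.4% of G2/M cells.

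The share of NEAT1 relative to MALAT1 also followed the phase. There were 19.9, 15.2 and 4.85 NEAT1 UMIs per 100 MALAT1 UMIs in G1, S and G2/M in control and 11.1, 8.78 and 3.94 in squashed. Within G2/M, the cells of each library were split into 3 equal classes by the level of 18 mitotic genes such as PLK1, CDC20 and TPX2. The cuts were set in each library, so a class need not hold the same mitotic level in both. NEAT1 was at 202, 170 and 164 CPM from the low over the middle to the high class in control, and at 349, 171 and 238 CPM in squashed, while MALAT1 was at 3187, 3085 and 4644 CPM and at 4536, 5373 and 8223 CPM. The ratio to 100 MALAT1 UMIs went from 6.33 to 3.53 in control and from 7.69 to 2.90 in squashed.

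**Figure D4:**
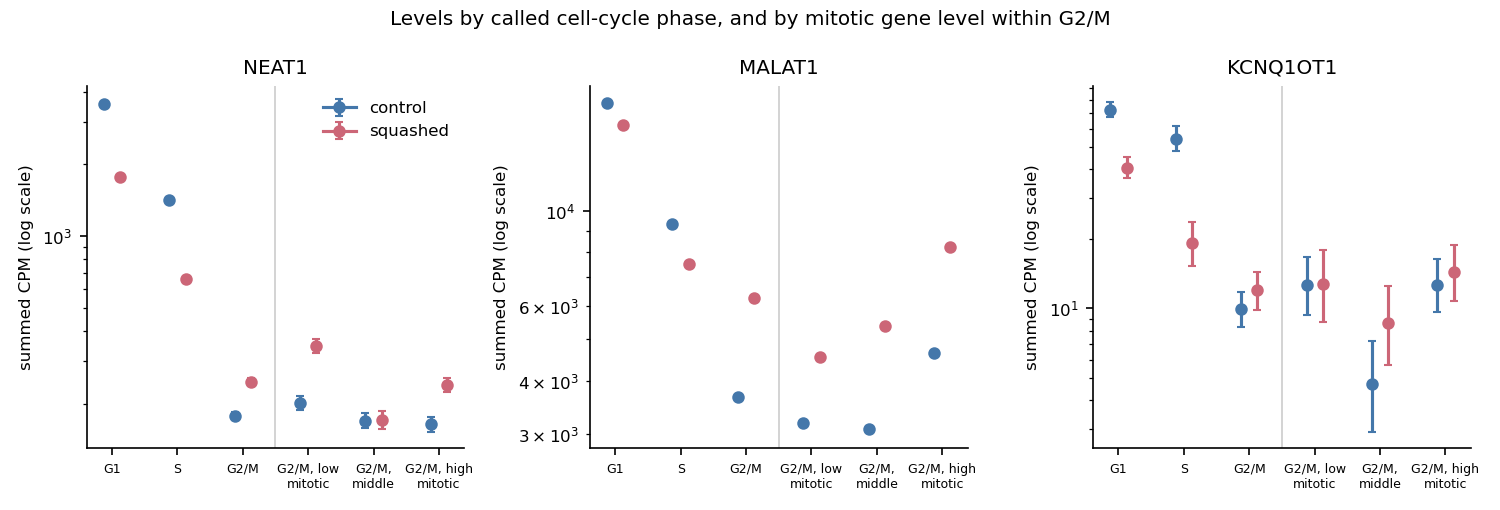
Summed CPM (log scale) of each RNA in cells called G1, S and G2/M, in control (blue) and squashed (red), with exact 95% intervals for counting error. Right of the grey line are 3 equal classes of the G2/M cells by mitotic gene level, cut in each library. By these sums all 3 RNAs stood highest in G1 and lowest in G2/M. NEAT1 and MALAT1 were higher in squashed than in control over all G2/M cells but lower in G1 and S, and in the middle mitotic class NEAT1 was at 170 and 171 CPM.

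Between the libraries, NEAT1 was at 1612 CPM in control (44292 UMIs) and 927 CPM in squashed (21622 UMIs), 1.74-fold lower in squashed (log2 −0.80, −0.82 to −0.77). KCNQ1OT1 was at 39.95 CPM (1098 UMIs) and 24.8 CPM (578 UMIs), 1.61-fold lower (log2 −0.69, −0.84 to −0.54). MALAT1 was at 9848 and 10322 CPM, a log2 ratio of 0.07 (0.06 to 0.08), and held rank 8 of all genes in both. With 1 library a group these ratios compare 2 libraries, not the conditions, and have no replicate error. Of 4307 genes that reached 20 CPM in control or squashed, 532 (12.4%) were at least 1.5-fold lower in squashed and 150 (3.48%) at least 1.5-fold higher. NEAT1 and KCNQ1OT1 were 2 of the 532, with 7.55% and 9.66% of genes below them, and the median log2 ratio of all 4307 genes was −0.14.

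The library ratios turned on which cells were counted. Under a stricter filter (2000 UMIs, 1000 genes, no more than 10% mitochondrial), NEAT1 came to −0.068, MALAT1 to 0.69 and KCNQ1OT1 to 0.37. By mean CPM per cell MALAT1 was lower in squashed (−0.26), as it was with cells thinned to 2000 UMIs (−0.089). With trimmed-mean (TMM) scaling, which moved the median of all genes to 0.02, the ratios were −0.65, 0.22 and −0.54 for NEAT1, MALAT1 and KCNQ1OT1.

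Within classes of cells, NEAT1 was lower in squashed in 5 of 5 UMI classes (log2 −2.31 to −0.59) and in 4 of 4 MALAT1 classes (−0.88 to −0.75). By mitochondrial share it was lower in 3 of 5 classes, by −0.29 at 2 to 5%, −0.54 at 5 to 10% and −1.07 at 10 to 20%, and higher below 1% (131 control and 152 squashed cells). At 1 to 2% (109 and 62 cells) its level of 57.7 and 147 CPM rested on a single squashed cell with 73.8% of that class's NEAT1 UMIs, and without the richest cell of each library, a setting chosen after seeing the data, it was 51.0 and 38.6 CPM, lower in squashed. The same step left 180 and 231 CPM below 1%, and kept NEAT1 lower in squashed in each UMI class, the closest being 229 and 178 CPM at 2000 to 5000 UMIs. By phase it was lower in G1 (−1.02) and S (−1.11) and higher in G2/M (0.47), but among G2/M cells of 2 to 5%, 5 to 10% and 10 to 20% mitochondrial UMIs it was 0.16, 0.037 and 0.12, and only the last interval lay above 0 (0.0051 to 0.23). MALAT1 was lower in G1 (−0.17) and S (−0.31), higher in G2/M (0.77), and higher in 4 of 5 mitochondrial classes. KCNQ1OT1 was lower in G1 (−0.83) and S (−1.50), and in G2/M its interval held 0 (0.27, −0.11 to 0.65). Squashed held fewer of its called cells in G2/M, 37.4% against 49.8%, and more barcodes over 20% mitochondrial UMIs, 858 against 397. The part of this make-up in the library ratios was not tested.

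**Figure D5:**
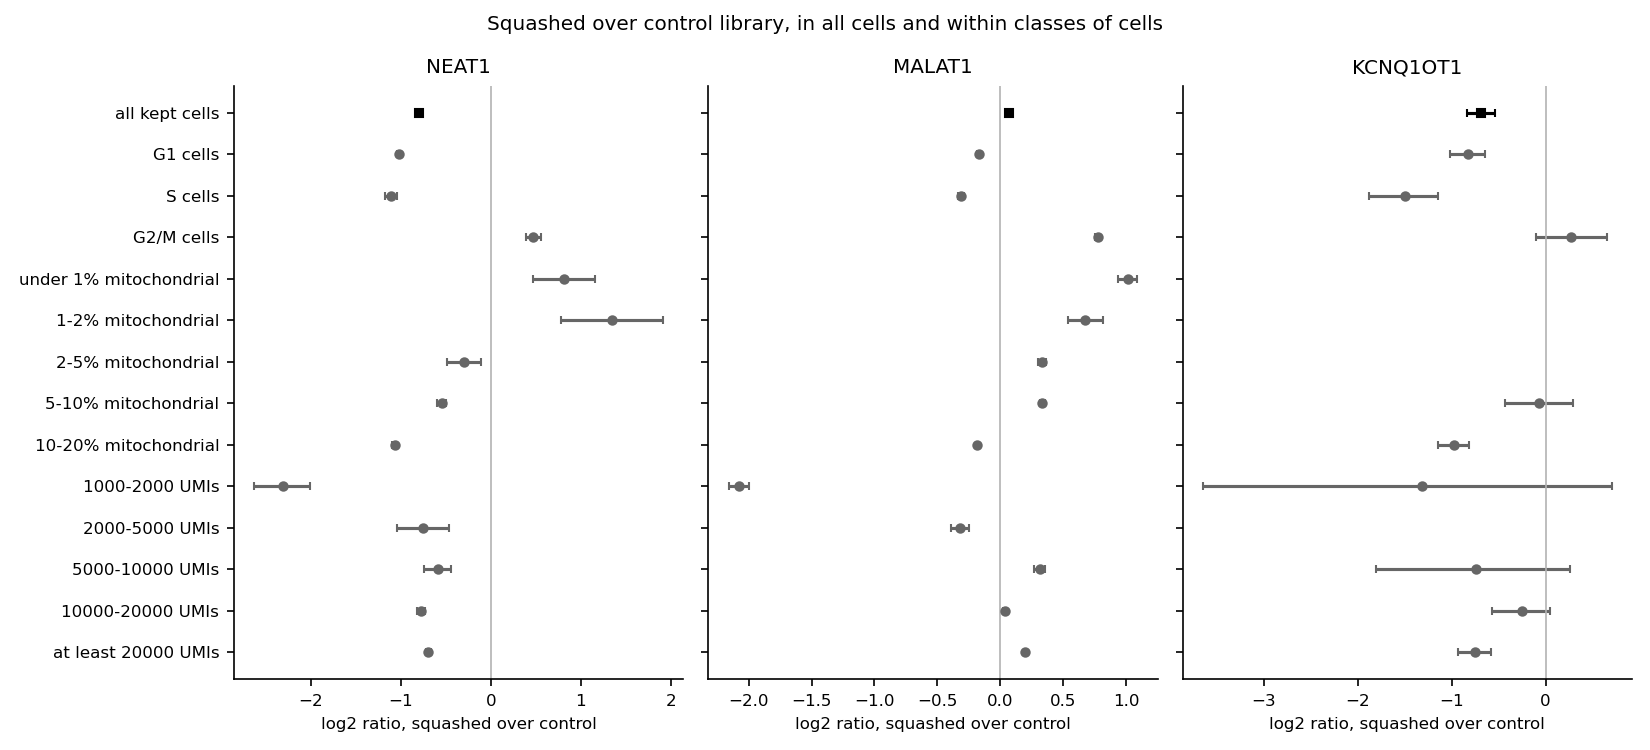
Log2 ratio of summed CPM, squashed over control, in all kept cells (black squares) and within phases, mitochondrial classes and UMI classes (grey circles), with exact 95% intervals for counting error; the x axes differ between panels and the KCNQ1OT1 classes with too few UMIs are left out. NEAT1 lay below 0 in every class shown except G2/M cells and the classes under 2% mitochondrial UMIs, of which the 1 to 2% class rests on a single squashed cell, and MALAT1 lay on both sides of 0.

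Other genes of the members' bodies and domains were compared in the same way, against a median of −0.14 over all genes, of which 12.4% were lower and 3.48% higher. Of 4 measured of 13 other mostly nuclear long non-coding RNAs, 1 was at least 1.5-fold lower in squashed and none higher, with a median of −0.27: FTX was at 65.0 and 27.0 CPM (log2 −1.27), TUG1 −0.37, JPX −0.17 and SNHG14 −0.10. Of 22 measured paraspeckle protein genes, 1 was higher and 1 lower, with a median of −0.10. HNRNPM went from 105 to 164 CPM (0.64) and DAZAP1 from 29.3 to 12.9 CPM (−1.18). SFPQ, a core paraspeckle protein, had −0.50, as did HNRNPH1. NONO, another core protein, was at 265 and 259 CPM (−0.034), and PSPC1, under 20 CPM in both libraries, had −0.41.

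Of 17 nuclear speckle and splicing protein genes, 3 (17.6%, beside 12.4% of all genes) were lower and none higher (beside 3.48%), with a median of −0.23. The 3 were the splicing factors SRSF6 (−0.67), SRSF11 (−0.65) and SRSF5 (−0.60), while SON, a speckle core protein, had 0.49. Of 6 measured mRNAs known for retained introns, CCNL1 was lower (−0.85), and PNISR (−0.52), NKTR (−0.36) and LUC7L3 (−0.32) were within 1.5-fold. Of 11 mostly cytoplasmic long non-coding RNAs, EPB41L4A-AS1 was lower (71.4 and 16.9 CPM, −2.08), with NORAD at −0.43, GAS5 at −0.39 and SNHG8 at 0.29.

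Of 3 measured immediate early genes, IER3 (84.6 and 18.9 CPM, −2.16) and DUSP1 (−0.59) were lower and FOS (−0.38) was within 1.5-fold. Of 10 genes listed for the KCNQ1 imprinted domain, only TSSC4 (−0.41), NAP1L4 (0.15) and CD81 (−0.12) were measured, and none of these 3 passed 1.5-fold. The rest were under 20 CPM in both libraries, KCNQ1 among them with 8 UMIs in control and 3 in squashed. TRPM5 and KCNQ1DN had no UMI in either library. Whether the domain as a whole differed cannot be read from the 3 measured genes. Among neighbours of NEAT1 and MALAT1, KAT5 was at −0.57, RELA at −0.50 and ZNRD2 at −0.13, none past 1.5-fold, beside −0.80 for NEAT1 and 0.07 for MALAT1.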

How the data were processed

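Both 10x Chromium v3.1 libraries were sequenced on a NovaSeq 6000 (100 cycles), per the submitters' design text. The authors deposited UMI counts per gene and barcode on GRCh38. The file headers name Cell Ranger 4.0.0, the design text 5.0.1, and the submitters' processing notes list R 4.3.2. Counts were summed over kept cells and scaled to CPM by the library total, with ratios after adding 0.5 UMI. Intervals are exact Clopper-Pearson at 95%, and a floor is 3 UMIs. Doublets (16 and 15, called per library with Scrublet in scanpy 1.11.5) stayed in. Thinning drew UMIs without replacement. TMM factors came from edgeR 4.0.16 in R 4.3.3. With 1 library a group no test was run. The ratios, intervals and thinning were tested on simulated data. A-run positions came from GENCODE transcripts matched to 36366 of 36601 genes.

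Members and lists were chosen with earlier results of these data known. Named genes were the members, the 6 most like and 3 most opposite genes of each, and up to 4 measured genes of each list with the largest absolute ratio. NONO, PSPC1 and KCNQ1 were added outside this rule. Some genes of the lists are not reported here. The 16 lists included G1/S, G2/M, marker and nuclear RNA lists. Alternatives changed the cell filter, depth, scaling, doublets and phase calls.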

Additional observations from a re-analysis of the deposited data

Results flagged for a closer look

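NEAT1 and MALAT1 drew a closer look because squashed stood below control in 2 phases and above it in the other, a difference between phases that was not tested. For NEAT1 the log2 ratio of squashed over control was −1.02 in cells called G1, −1.11 in S and 0.47 in G2/M. For MALAT1 it was −0.17 in G1, −0.31 in S and 0.77 in G2/M. G2/M cells were also split by mitotic genes, with cuts set in each library, so these classes are not matched for mitotic level. NEAT1 gave 0.79 in the low class, 0.014 in the middle (−0.15 to 0.18) and 0.54 in the high class, and MALAT1 0.51, 0.80 and 0.82. Within mitochondrial classes of G2/M cells (2 to 5%, 5 to 10% and 10 to 20%) NEAT1 gave 0.16 (−0.11 to 0.41), 0.037 (−0.12 to 0.19) and 0.12 (0.0051 to 0.23), and MALAT1 0.50, 0.87 and 0.24. Within UMI classes of G2/M cells, from 2000 to 5000 up to at least 20000, NEAT1 gave −0.15, 0.19, 0.79 and 0.071, with 0 outside the interval in 1 of 4, and MALAT1 0.90, 0.82, 0.85 and 0.49. The MALAT1 interval lay above 0 in each of these classes. The squashed library had more cells near a phase cut, 43.6% against 32.4%, and the part of this in the difference was not tested.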

How the results depend on the processing

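Values are log2 ratios unless named otherwise, and the cause of each move was not tested. No paired analysis was possible because each group holds 1 library.

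The ratio of squashed over control was the least stable result. For NEAT1, at −0.80 as reported, it was −0.59 with no cell filter, −0.56 with barcodes over 20% mitochondrial UMIs kept (chosen after seeing the data), −0.068 with the stricter filter, −0.98 with cells thinned to 2000 UMIs, −0.65 with TMM scaling, −0.63 with median-of-ratios scaling, −0.73 without mitochondrial and ribosomal protein UMIs in the total, and −1.04 by mean CPM per cell. For MALAT1, at 0.07, the same settings gave 0.19, 0.21, 0.69, −0.089, 0.22, 0.23, 0.13 and −0.26, so thinning and the mean per cell reversed it. For KCNQ1OT1, at −0.69, it was −0.29 with no cell filter, −0.27 with barcodes over 20% kept, −0.54 and −0.52 with the 2 scalings, and reversed to 0.37 with the stricter filter.

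By summed CPM, G2/M stood below G1 for all 3 RNAs in both libraries under every setting run. By the median over cells, squashed MALAT1 was higher in G2/M (3234 CPM) than in G1 (424 CPM). Among cells with 2 to 5% mitochondrial UMIs, which was not one of the settings, summed MALAT1 was higher in G2/M in both libraries. The only depth class run as a setting was 10000 to 20000 UMIs. Its values for control and squashed were −5.22 and −3.35 for NEAT1, −2.73 and −1.55 for MALAT1 and −4.24 and −2.60 for KCNQ1OT1. With phases called at 5000 UMIs they were −4.50 and −3.28 for NEAT1 and −2.44 and −1.51 for MALAT1. Without mitochondrial and ribosomal protein UMIs they were −4.48 and −3.00, and −2.44 and −1.51. Without called doublets control had −4.52 for NEAT1 and −2.33 for MALAT1. With at least 1000 genes MALAT1 had −2.32 and −1.41.

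Cells with at least 20000 UMIs stayed above cells with 1000 to 5000 UMIs under every setting run. With G1 cells only, the values for control and squashed were 2.15 and 2.75 for NEAT1 and 0.67 and 1.83 for MALAT1. Without the cell of the highest MALAT1 level, a setting chosen after seeing the data, they were 1.70 and 2.58, and 0.41 and 1.76. In squashed the cell left out had 2027 UMIs in all. The squashed cell with the most MALAT1 UMIs in the 1000 to 5000 class, 1626 of 6336, stayed in. With at least 1000 genes NEAT1 in control had 3.03, and MALAT1 had 1.46 and 1.28. Without mitochondrial and ribosomal protein UMIs MALAT1 in squashed had 1.48.

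Cells with 10 to 20% mitochondrial UMIs stayed above cells with 2 to 5% under every setting run. Among cells with 2000 to 5000 UMIs, which was not one of the settings, MALAT1 was lower at 10 to 20% in both libraries. NEAT1 was lower there in control. With cells of 10000 to 20000 UMIs the values were 5.84 and 4.81 for NEAT1 and 3.35 and 2.64 for MALAT1. With at least 1000 genes NEAT1 in control had 5.58, and MALAT1 had 3.25 and 2.46. Without mitochondrial and ribosomal protein UMIs MALAT1 in control had 3.09.

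Overdispersion with cells thinned to 2000 UMIs was 7.28 and 8.85 for NEAT1, 4.36 and 6.15 for MALAT1 and 5.86 and 7.83 for KCNQ1OT1. Without called doublets it was 6.75 and 6.92, 3.23 and 3.27, and 7.86 and 9.26. With no minimum level, 3746 genes were at least 1.5-fold higher and 5725 lower in squashed, and with TMM scaling 244 were higher and 379 lower. Of 115 values under other settings whose reported value has an interval or is a count, 53 stayed within that interval or, for counts, within 1.5 times. The 12 overdispersion values have no interval and are not among them. KCNQ1OT1 had 10 or fewer UMIs in the low mitochondrial and low UMI classes, which limits its ratios there.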

Other observations

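Barcodes with at least 1000 UMIs removed for a mitochondrial share over 20% held higher levels of the 3 RNAs than any kept class by mitochondrial share. In control, 167 barcodes with 20 to 50% had 6651 CPM of NEAT1, 31969 CPM of MALAT1 and 85.1 CPM of KCNQ1OT1, and 230 barcodes with 50 to 100% had 11628, 28902 and 191 CPM. In squashed, 523 and 335 such barcodes had 6503, 45360 and 159 CPM, and 4711, 25498 and 125 CPM. Single barcodes differed widely: in squashed barcodes with 20 to 50%, the median NEAT1 level was 0 and the median MALAT1 level 1588 CPM, with a NEAT1 UMI in 32.5% of barcodes. NEAT1 UMIs per 100 MALAT1 UMIs were 20.8 and 40.2 in these control classes and 14.3 and 18.5 in squashed, the highest of the classes compared by mitochondrial share in each library.

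Barcodes removed for having under 500 genes, without those over 20% mitochondrial UMIs, differed between the libraries. The 148 in control had 1432 CPM of NEAT1 and 14082 CPM of MALAT1, and the 236 in squashed had 116 and 4031 CPM. Their KCNQ1OT1 UMIs numbered 3 and 0. A single control barcode held 25.8% of that class's NEAT1 UMIs.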
